A study of Mus musculus with 12 samples.

Results

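The genes described here encode 9 basement membrane proteins of mouse muscle, namely the laminin chains *Lama2*, *Lama4*, *Lama5*, *Lamb1*, *Lamb2* and *Lamc1*, the nidogens *Nid1* and *Nid2*, and perlecan, *Hspg2*. They were chosen by name, as the non-collagen core of the basement membrane, and are 9 of the 27179 genes in the count table. Laminins are cross-shaped trimers of 1 alpha, 1 beta and 1 gamma chain that assemble into a sheet at the cell surface, and nidogens and perlecan link that sheet to the collagen IV network. In skeletal muscle the trimer with the alpha2 chain surrounds each myofiber and binds dystroglycan and the alpha7 beta1 integrin, and loss of the alpha2 chain causes a congenital muscular dystrophy. The alpha4 and alpha5 chains are chains of vessel walls, nerve and the neuromuscular junction, and the beta2 chain is concentrated at the junction.

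*FRAIL1* is a human long noncoding RNA, and the experiment asked what it does to gene expression when placed in mouse muscle. The tibialis anterior (TA) muscles of 6 male wild-type C57BL/6N mice, bought at 6 to 8 weeks of age and used within 2 weeks, were injected with hyaluronidase and then electroporated with plasmid. All 12 muscles received 10 μg of pcDNA3, either empty (Control, n = 6) or carrying *FRAIL1* under the CMV promoter (*FRAIL1*, n = 6, the contralateral TA), and whole-muscle poly(A) RNA was collected 7 days later. Because Controls were also injected and electroporated, both groups carry the effect of the procedure, and no muscle without plasmid is compared here. RNA came from the whole muscle, so fewer cells of a type and less RNA per cell cannot be told apart.

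The libraries held 44848322 to 60527385 counts assigned to genes, and 15502 genes passed the filter on low counts. Values are counts per 1000000 counts of the library (CPM), scaled by TMM, an adjustment for the make-up of each library. On the first principal component (32.4% of the variance) *FRAIL1* muscle 5 stood apart at 59.5, with the next *FRAIL1* muscle at 25.8, so results that rest on it are given with and without it. The level of *FRAIL1* itself, a human transcript, was not analysed here. The share of counts from mitochondrial genes was 9.12% to 11.4% in Control and 6.58% to 9.9% in *FRAIL1* muscles.

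A promoter window was found for 6 of the 9 genes in the RefSeq table of the mouse assembly GRCm38.p6. The bases from 250 to 61 before the RefSeq start, which for *Lamb1* and *Nid1* lies downstream of the GENCODE start used in the gene spans, are shown for *Lama5*, the gene with the lower mean in *FRAIL1* muscles, and for *Lamb1* and *Nid1*, which were both highest in *FRAIL1* muscle 5. No annotated exon covers these windows, which lie at chr2:180225920-180226109 (minus strand), chr12:31265043-31265232 (plus strand) and chr13:13437352-13437541 (plus strand). Capitals mark the GC box, the letters GGGCGG or their reverse complement CCGCCC.
Lama5: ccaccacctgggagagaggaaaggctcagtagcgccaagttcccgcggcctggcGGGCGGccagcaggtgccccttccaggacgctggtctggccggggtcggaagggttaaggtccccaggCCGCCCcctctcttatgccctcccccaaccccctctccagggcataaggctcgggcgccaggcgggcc
Lamb1: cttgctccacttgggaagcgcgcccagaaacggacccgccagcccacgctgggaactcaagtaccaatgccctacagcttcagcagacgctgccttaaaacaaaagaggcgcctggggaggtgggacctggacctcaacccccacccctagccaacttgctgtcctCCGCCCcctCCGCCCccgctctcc
Nid1: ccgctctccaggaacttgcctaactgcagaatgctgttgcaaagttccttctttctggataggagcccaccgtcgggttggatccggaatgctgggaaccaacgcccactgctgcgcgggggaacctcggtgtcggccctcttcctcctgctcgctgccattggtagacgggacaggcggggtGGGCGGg
The *Lama5* and *Lamb1* windows each held 2 GC boxes and the *Nid1* window held 1. The motif was present in 4 of the 6 windows, against 22.8% of the 32851 windows of the same length in the table. Those 4, of *Lama5*, *Lamb1*, *Nid1* and *Hspg2*, held 62.6% to 71.1% G and C, against a median of 51.6% over all windows. The windows of *Lama2* and *Lamb2*, without the motif, held 42.6% and 44.7%. The *Lama2* window, chr10:27617003-27617192 (minus strand), lay inside the gene, downstream of its GENCODE start at 27619758. The *Lamb2* window, chr9:108479612-108479801 (plus strand), crossed the GENCODE start at 108479736 and was not free of annotated exons. The 6 windows were therefore not all upstream of the GENCODE start, which limits the comparison between them. The motif is made only of G and C, and its share was not compared at like G and C content. These matches describe the letters only, and the counts do not bear on the use of the sites.

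Per length of transcript, the highest level in Control muscle was that of *Lamb2*, the beta2 chain, at 39.2 ± 2.72 CPM per kb (SD, n = 6). Perlecan followed at 22 ± 1.73, then *Lamc1*, the gamma1 chain, at 15 ± 1.42, and *Nid1* at 13.2 ± 2.14 CPM per kb. *Lamb1* stood at 6.1 ± 0.951, *Lama5* at 4.92 ± 0.184, *Lama4* at 4.39 ± 0.853, *Lama2* at 3.28 ± 0.562 and *Nid2* at 2.77 ± 0.534 CPM per kb. The Control ranges of neighbours in this order overlapped for *Lamc1* and *Nid1*, and from *Lamb1* down to *Nid2* they overlapped at each of the 4 steps. The order of the lower 5 genes also depended on the length used, since with the union of all annotated exons *Lama5* (4.92) stood above *Lamb1* (3.56), *Nid2* (2.61), *Lama4* (2.2) and *Lama2* (1.93 CPM per kb).

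**Figure D1:**
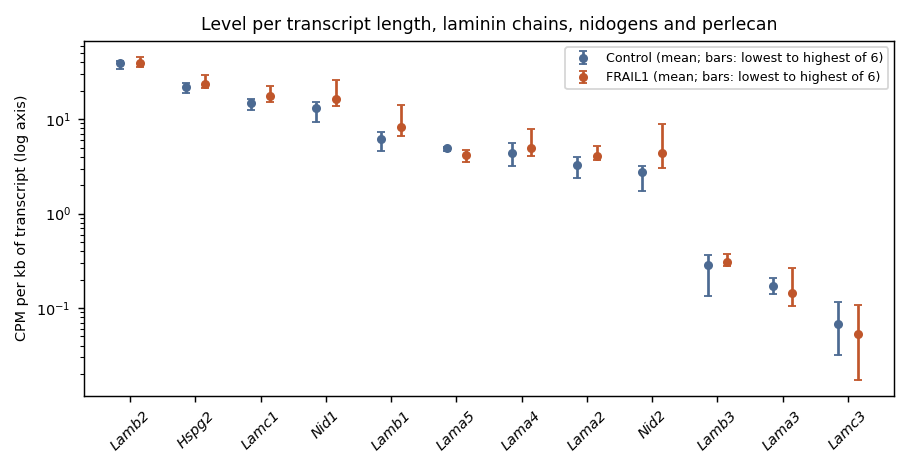
Level of each gene in CPM per kb of its transcript (log axis) in Control and *FRAIL1* muscles, as the mean with bars from the lowest to the highest of 6 muscles. The beta2 chain *Lamb2* is highest at 39.2 CPM per kb in Control, and the chains *Lamb3*, *Lama3* and *Lamc3* have Control means at or under 0.286 CPM per kb.

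Among the alpha chains, counted per length, *Lama5* made up 38.9% ± 4.58 of the Control total, *Lama4* 34.1% ± 4.14 and *Lama2* 25.6% ± 2.56 (SD, n = 6). In *FRAIL1* muscles the shares were 31.9% ± 5.95, 36.4% ± 5.39 and 30.5% ± 1.18. The *Lama2* share was 22.2% to 28.7% in Control and 29.2% to 32.5% in *FRAIL1* muscles, ranges that did not overlap. That observation was made after the values were seen, was not tested, and depends on the share taken by the other chains. For the beta chains, *Lamb2* made up 86.0% ± 1.44 and *Lamb1* 13.3% ± 1.37 in Control, against 82.1% ± 5.33 and 17.2% ± 5.37 in *FRAIL1* muscles, where muscle 5 had 28% *Lamb1*. All these shares depend on the transcript length used for each gene. With the union of all annotated exons the Control means were 4.92 for *Lama5*, 2.2 for *Lama4* and 1.93 CPM per kb for *Lama2*. For *Lamb2* and *Lamb1* they were 36.3 and 3.56 CPM per kb.

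None of the 9 genes passed an adjusted p of 0.05 in either direction in edgeR's quasi-likelihood test, fitted without pairing of the muscles. In that fit 6.28% of all genes tested did, 4.43% higher and 1.85% lower in *FRAIL1* muscles. At an unadjusted p under 0.05, *Lama2*, *Lamb1*, *Lamc1* and *Nid2* were higher (4 of 9, against 15.2% of all genes) and *Lama5* was lower (1 of 9, against 12.5%). DESeq2 called 2 of the 9, *Lama5* and *Nid2*, and 14.6% of all genes to which it gave an adjusted p, and limma voom called 1 of the 9 (*Lama5*) and 11.3% of all genes. The log2 fold change was positive for 8 genes and negative for 1, with a median of 0.21, beside 0.0096 over all genes, of which 51.6% were positive. Without *FRAIL1* muscle 5, 7 were positive and 2 negative with a median of 0.12, and without Control muscle 1 as well, 6 were positive and 3 negative with a median of 0.04. For all 9 genes the values of the groups overlapped. Over all genes 4.88% had groups that did not, so this count does not set the 9 genes apart.

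Each gene is given with its NCBI gene ID and its span in the GENCODE M21 annotation of GRCm38.

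**Figure D2:**
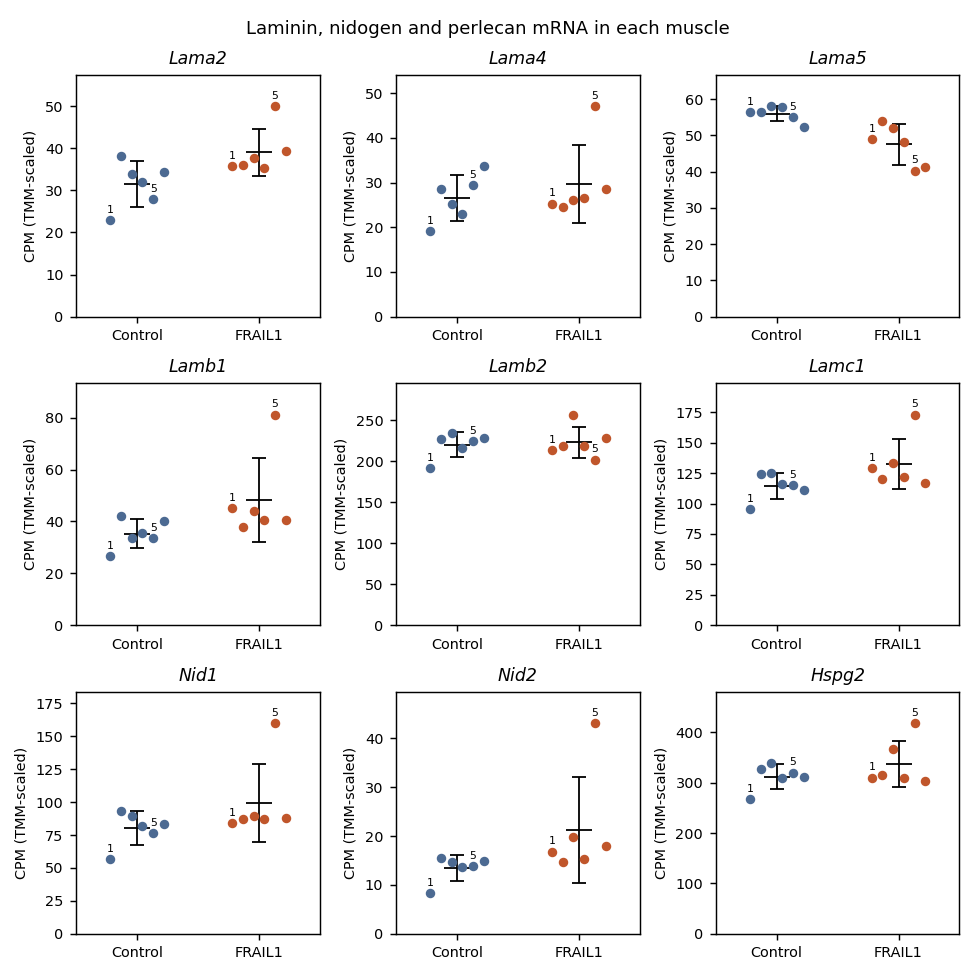
TMM-scaled CPM of each gene in the 6 Control and 6 *FRAIL1* muscles (points, with muscles 1 and 5 numbered), with the mean and SD in black and axes from 0. *FRAIL1* muscle 5 is the highest of the 12 for 7 genes and the lowest for *Lama5*, and Control muscle 1 is the lowest for 8 genes.

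*Lama2* (gene ID 16773, chr10:26980036-27619758), the alpha chain of the myofiber basement membrane, measured 22.9 to 38.1 CPM in Control muscles with a median of 32.9. In *FRAIL1* muscles it measured 35.4 to 50.0 CPM with a median of 36.8. Of the *FRAIL1* muscles, 2 were above the highest Control and the other 4 lay within the Control range. Its log2 fold change was 0.31 (95% interval 0.06 to 0.56, adjusted p = 0.109). Without *FRAIL1* muscle 5 it was 0.22 (adjusted p = 0.221).

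*Lama4* (gene ID 16775, chr10:38965515-39110188), an alpha chain of endothelial and nerve basement membranes, measured 19.2 to 33.8 CPM in Control muscles (median 26.8) and 24.6 to 47.1 CPM in *FRAIL1* muscles (median 26.3). Only *FRAIL1* muscle 5, at 47.1 CPM, exceeded the highest Control, and the other 5 lay within the Control range. The log2 fold change of 0.16 had an interval of -0.21 to 0.54 (adjusted p = 0.568) and was -0.02 without that muscle.

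*Lama5* (gene ID 16776, chr2:180176373-180225859), an alpha chain of vessel walls and the neuromuscular junction, was the one gene with a lower mean in *FRAIL1* muscles. Control muscles measured 52.4 to 58.1 CPM with a median of 56.5, the narrowest spread of the alpha chains. *FRAIL1* muscles 1 to 6 measured 49.1, 54.1, 52.2, 48.2, 40.3 and 41.2 CPM. The groups overlapped only through *FRAIL1* muscle 2, since the other 5 were below the lowest Control. The log2 fold change was -0.24 (SE 0.0723, 95% interval -0.39 to -0.08, unadjusted p = 0.00489, adjusted p = 0.0594). Without *FRAIL1* muscle 5 it was -0.20 (adjusted p = 0.0804). Over all alternative settings its adjusted p ran from 0.0153 to 0.13, on both sides of the threshold.

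*Lamb1* (gene ID 16777, chr12:31265234-31329644), the beta1 chain, measured 26.7 to 42.3 CPM in Control muscles (median 34.6). *FRAIL1* muscles 1 to 6 measured 45.3, 37.9, 44.1, 40.7, 81.2 and 40.6 CPM. Muscle 5 was 1.95 times the mean of the other 5, and 3 *FRAIL1* muscles lay within the Control range. For *Lamb1* the log2 fold change was 0.45 (95% interval 0.06 to 0.85, adjusted p = 0.13), and 0.24 without muscle 5 (adjusted p = 0.153).

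*Lamb2* (gene ID 16779, chr9:108479736-108490530), the beta2 chain, measured 192 to 235 CPM in Control muscles and 202 to 257 CPM in *FRAIL1* muscles, with medians of 226 and 219. In *FRAIL1* muscle 5 it was 202 CPM, the lowest of that group, in contrast to *Lamb1*. Its log2 fold change was 0.02 with an interval of -0.13 to 0.16 (adjusted p = 0.905).

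*Lamc1* (gene ID 226519, chr1:153218922-153332786), the gamma1 chain shared by most muscle laminins, measured 95.6 to 125 CPM in Control muscles (median 116) and 117 to 173 CPM in *FRAIL1* muscles (median 126). Of the *FRAIL1* muscles, 3 of 6 were above the highest Control. In the edgeR test its log2 fold change was 0.21 (95% interval 0.01 to 0.41, adjusted p = 0.168), and 0.12 without *FRAIL1* muscle 5 (adjusted p = 0.331).

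*Nid1* (gene ID 18073, chr13:13437551-13512269), the more abundant nidogen, measured 56.6 to 93.3 CPM in Control muscles (median 82.7). *FRAIL1* muscles other than muscle 5 measured 84.2 to 89.5 CPM, within the Control range, and muscle 5 measured 160 CPM. The log2 fold change of 0.31 (95% interval -0.05 to 0.67, adjusted p = 0.248) was 0.12 without muscle 5.

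*Nid2* (gene ID 18074, chr14:19751265-19811787), the second nidogen, had the largest log2 fold change of the 9 genes, 0.66 (SE 0.264, 95% interval 0.08 to 1.23, adjusted p = 0.133). Control muscles 1 to 6 measured 8.38, 15.6, 14.6, 13.6, 13.9 and 14.9 CPM, and *FRAIL1* muscles 1 to 6 measured 16.8, 14.7, 19.9, 15.4, 43.1 and 17.9 CPM. Of the *FRAIL1* muscles 4 were above the highest Control, and muscle 5 was 2.54 times the mean of the others. Without muscle 5 the log2 fold change was 0.33 (adjusted p = 0.172), and without Control muscle 1 as well it was 0.22 (adjusted p = 0.158). Exons of *Rtraf* on the opposite strand overlap 8.45% of the exonic length of *Nid2*. The corresponding overlap was 3.86% for *Lama2* and 2.06% for *Nid1*, and the strand setting of the counting is not given in the sources used here.

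*Hspg2* (gene ID 15530, chr4:137468769-137570630), perlecan, a heparan sulfate proteoglycan, measured 267 to 338 CPM in Control muscles (median 316) and 303 to 418 CPM in *FRAIL1* muscles (median 313). *FRAIL1* muscle 5 was highest at 418 CPM, and 4 *FRAIL1* muscles lay within the Control range. Its log2 fold change was 0.11 (95% interval -0.07 to 0.30, adjusted p = 0.426), and 0.04 without muscle 5.

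**Figure D3:**
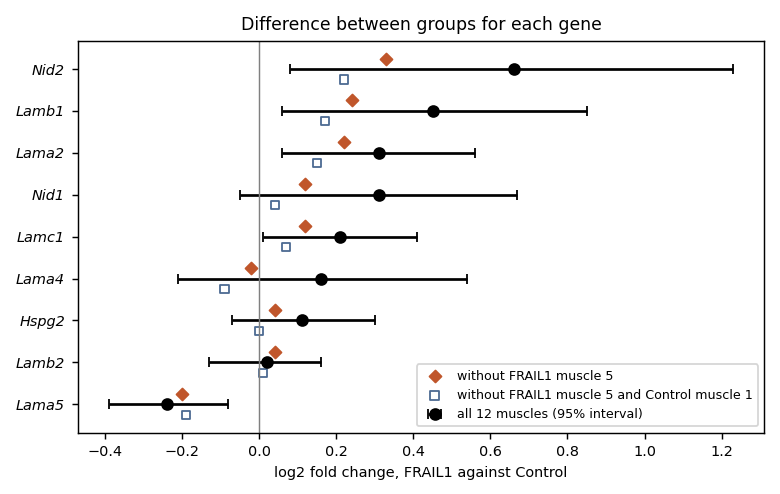
log2 fold change of each gene, *FRAIL1* against Control, with its 95% interval over all 12 muscles (black), without *FRAIL1* muscle 5 (diamonds) and without that muscle and Control muscle 1 (squares). *Nid2* moves from 0.66 to 0.33 and then 0.22, whereas *Lama5* goes from -0.24 to -0.20 and -0.19.

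The 9 genes did not vary alike from muscle to muscle. Over the 12 muscles, Pearson's r with the mean standardised level of the other 8 was 0.773 to 0.94 for *Lama2*, *Lama4*, *Lamb1*, *Lamc1*, *Nid1*, *Nid2* and *Hspg2*, 0.158 for *Lamb2* and -0.617 for *Lama5*. These values describe libraries that share group and depth, and they lean on 2 muscles. Without *FRAIL1* muscle 5 and Control muscle 1, r was 0.777 for *Hspg2*, 0.694 for *Lamb2*, 0.601 for *Nid1*, 0.589 for *Nid2*, 0.584 for *Lamc1*, 0.345 for *Lama2*, 0.335 for *Lamb1*, -0.131 for *Lama4* and -0.229 for *Lama5*. Over the 6 Control muscles alone, which include muscle 1, it was 0.945 for *Lamb2* and -0.12 for *Lama5*. For the others it ran from 0.681 for *Lama4* to 0.987 for *Nid2*. The 5 genes outside the set most like its mean over the 12 muscles were *Gpr153* (r = 0.953), *Loxl2* (0.948), *Col15a1* (0.945), *Col4a1* (0.944) and *Col4a2* (0.944). *Col4a1* and *Col4a2* encode the main collagen IV chains, *Col15a1* a basement membrane collagen and *Loxl2* a collagen cross-linking enzyme. Without the same 2 muscles their r was 0.519 to 0.732.

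Ratios of 2 mRNAs within a muscle do not depend on library scaling, and 5 were compared with a two-sided exact permutation test over the 924 splits of the muscles, with Benjamini-Hochberg adjustment over the 5. The log2 ratio of *Lama5* to *Lama2* counts was 1.3, 0.57, 0.78, 0.85, 0.98 and 0.61 in Control muscles 1 to 6 and 0.46, 0.59, 0.47, 0.45, -0.31 and 0.07 in *FRAIL1* muscles 1 to 6. The *FRAIL1* mean differed from that of Control by -0.56 (exact p = 0.00433, adjusted p = 0.0216), and the groups overlapped through *FRAIL1* muscle 2. Without *FRAIL1* muscle 5 the difference was -0.44 (exact test, adjusted p = 0.0541).

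The ratio of *Lamb2* to *Lamb1* differed between *FRAIL1* and Control muscles by -0.40 on the log2 scale (exact permutation p = 0.0325, adjusted p = 0.0406), with means of 2.26 ± 0.476 and 2.66 ± 0.171 (SD, n = 6) and 1.31 in muscle 5. Without that muscle the difference was -0.21 (adjusted p = 0.0584). The ratio of *Nid2* to *Nid1* was higher by 0.29 (exact permutation p = 0.0195, adjusted p = 0.0325), and that of *Hspg2* to *Lamc1* differed by -0.10 (exact permutation p = 0.0195, adjusted p = 0.0325). Without muscle 5 these were 0.21 and -0.08, each with an adjusted p of 0.0584. The ratio of *Lama4* to *Lama2* differed by -0.17 (exact permutation p = 0.177, adjusted p = 0.177). All 5 ratios overlapped between groups, and the 4 that passed over the 12 muscles did not pass without *FRAIL1* muscle 5. *Lama5* to *Lama2* passed when any other single muscle was left out. The calls of *Lamb2* to *Lamb1*, *Nid2* to *Nid1* and *Hspg2* to *Lamc1* were also lost without other muscles. Without Control muscle 3, for example, their adjusted p in the exact test was 0.108, 0.0649 and 0.0649.

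**Figure D4:**
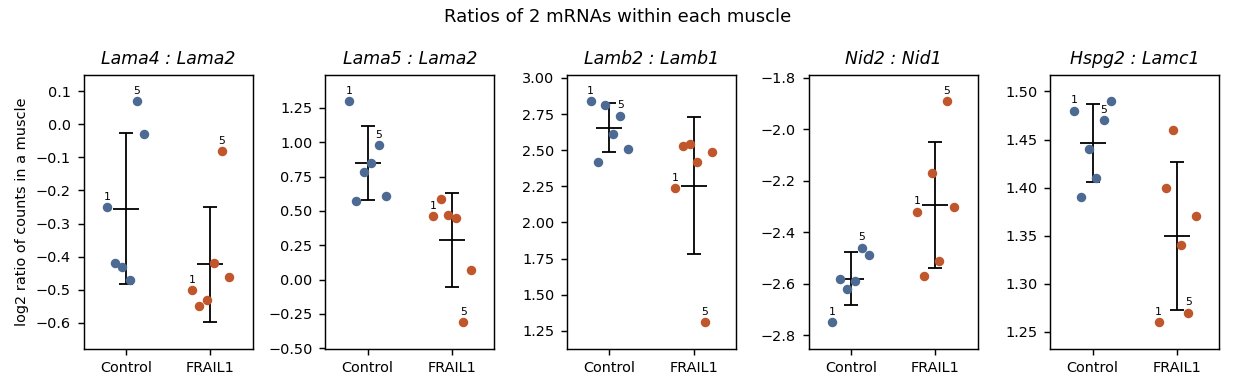
log2 ratio of the counts of 2 genes in each Control and *FRAIL1* muscle (points, muscles 1 and 5 numbered), with mean and SD in black; each panel has its own axis, which does not start at 0. *FRAIL1* muscle 5 lies at -0.31 for *Lama5* to *Lama2* and 1.31 for *Lamb2* to *Lamb1*, the lowest values of those panels.

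Of 4 other laminin chains, *Lama1* had 0 to 10 counts per muscle and was not tested. None of *Lama3*, *Lamb3* and *Lamc3* passed in edgeR's test, in which 6.28% of all genes did. Of the 3, 0 had an unadjusted p under 0.05, and the median log2 fold change was -0.24. *Lamb3* was the highest of them at 0.286 ± 0.0848 CPM per kb in Control muscle (SD, n = 6).

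Among 11 receptors of laminin and the basement membrane, 2 rose and 1 fell, with a median log2 fold change of 0.00. In the same test 4.43% of all genes rose and 1.85% fell, and 4.88% of all genes had groups that did not overlap. *Itga7*, the alpha7 integrin that binds laminin on myofibers, rose from 143 to 168 CPM in Control to 171 to 263 CPM in *FRAIL1* muscles, with no overlap. Its log2 fold change was 0.47 (SE 0.0904, adjusted p = 0.0124), and 0.40 without *FRAIL1* muscle 5 (adjusted p = 0.0061). *Itga7* passed in 12 of the 12 fits that left out 1 muscle. *Itgb1*, its beta1 partner, rose from 256 to 294 CPM to 296 to 386 CPM, also without overlap (log2 fold change 0.26, adjusted p = 0.0397). *Itgb1* passed in only 4 of the 12 fits that left out 1 muscle, and without Control muscle 1 its adjusted p was 0.0846. *Itga1*, a collagen-binding integrin chain that also binds laminin, fell by 0.30 on the log2 scale (adjusted p = 0.0373), and the groups overlapped at 8.49 to 10.5 and 7.04 to 8.88 CPM. *Itga1* also passed in only 4 of these 12 fits, and without *FRAIL1* muscle 4 its adjusted p was 0.0778. *Dag1*, which encodes dystroglycan, measured 199 to 251 CPM in Control and 198 to 240 CPM in *FRAIL1* muscles, with a log2 fold change of -0.01 (95% interval -0.16 to 0.14).

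Of 16 genes for enzymes that build the laminin-binding glycan of alpha-dystroglycan, 0 passed in edgeR's test, with a median log2 fold change of 0.02. At an unadjusted p under 0.05, 1 of the 16 was higher and 4 were lower, beside 15.2% and 12.5% of all genes, and DESeq2 called 2 (14.6% of all genes) and voom 1 (11.3%).

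Of 20 other non-collagen basement membrane genes, 2 fell and none rose, while 16 had a positive log2 fold change and the median was 0.10. In the same test 4.43% of all genes rose and 1.85% fell. Higher calls appeared under other settings, with 5 higher and 3 lower by DESeq2 and 2 and 2 by voom, which called 14.6% and 11.3% of all genes. Without *FRAIL1* muscle 3 there were 4 higher and 3 lower, beside 1228 and 882 of all 15607 genes tested. At an unadjusted p under 0.05 in edgeR's test 7 were higher and 3 lower, beside 15.2% and 12.5% of all genes. *Egflam*, which encodes the dystroglycan ligand pikachurin, fell by 0.60 on the log2 scale (SE 0.125, adjusted p = 0.0179). Its values were 25.8 to 35.9 CPM in Control and 13.2 to 23.5 CPM in *FRAIL1* muscles, with no overlap (4.88% of all genes). *Egflam* passed in 12 of the 12 fits that left out 1 muscle. *Mmrn2*, an endothelial extracellular matrix gene, fell by 0.30 (adjusted p = 0.0279), with ranges of 27.5 to 35.5 and 22.7 to 27.9 CPM that overlapped. *Mmrn2* passed in 7 of these 12 fits, and its adjusted p was 0.0639 without *FRAIL1* muscle 1.

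**Figure D5:**
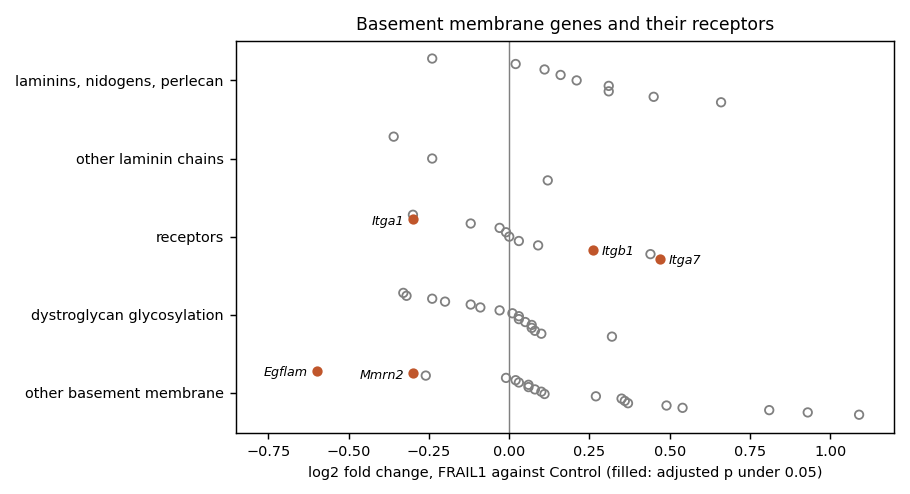
log2 fold change, *FRAIL1* against Control, of each tested gene in the laminin, nidogen and perlecan set and in 4 related lists, 1 point per gene, filled where the adjusted p in edgeR's test is under 0.05. *Itga7* and *Itgb1* are filled on the right, and *Itga1*, *Egflam* and *Mmrn2* on the left.

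Markers of the cell types a TA muscle holds were summed in each muscle, and several sums moved with the groups. The summed level of 7 fibroblast markers was 941 to 1790 CPM in Control and 1900 to 4910 CPM in *FRAIL1* muscles. The lowest sum was that of Control muscle 1 and the highest that of *FRAIL1* muscle 5, the muscles in which most of the 9 genes were lowest and highest, although none of the 7 markers passed the test. Most of this sum came from *Col1a1* (mean 449 CPM in Control and 926 CPM in *FRAIL1* muscles) and *Col3a1* (731 and 1290 CPM). The other 5 markers summed to 182 to 337 CPM and 240 to 411 CPM, which overlapped, and *Dcn* had means of 184 and 186 CPM. Their sum was also lowest in Control muscle 1 and highest in *FRAIL1* muscle 5. The sum of 7 satellite cell and regenerating fiber markers was 179 to 230 CPM in Control and 351 to 1600 CPM in *FRAIL1* muscles. It was again highest in *FRAIL1* muscle 5, and most of it came from *Myh3* (means 50.9 and 228 CPM) and *Myh8* (98.3 and 353 CPM). *Myog*, *Myh3*, *Myh8* and *Ncam1* rose (4 of the 7, against 4.43% of all genes). *Pax7*, *Myf5* and *Myod1* had positive log2 fold changes but did not pass edgeR's test (adjusted p = 0.0634, 0.0645 and 0.0725). The sum of 7 endothelial markers, which are relevant to *Lama4*, *Lama5* and *Mmrn2*, was 392 to 454 CPM in Control and 309 to 399 CPM in *FRAIL1* muscles. The lowest Control sum was that of Control muscle 1, and without it the lowest was 410 CPM. Of these 7 markers 1 was lower (1.85% of all genes), *Tek* (log2 fold change -0.41, adjusted p = 0.0186). All 7 had a negative log2 fold change, with a median of -0.19. At an unadjusted p under 0.05 in edgeR's test 3 of the 7 were lower, against 12.5% of all genes.

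The 9 neuromuscular junction markers summed to 186 to 205 CPM and 251 to 301 CPM. Of them 3 were higher, *Chrne*, *Chrnd* and *Chrna1*, and *Chrna1* went from a mean of 29.5 to 81.0 CPM. The median log2 fold change of the 9 was 0.16. The 6 myofiber markers summed to 122000 to 145000 CPM and 97800 to 129000 CPM, with 1 lower. Over all genes 4.43% were higher and 1.85% lower. The macrophage sum was 90.2 to 137 and 105 to 231 CPM, that of smooth muscle and pericytes 238 to 362 and 257 to 312 CPM, and that of Schwann cells 39.6 to 78.0 and 30.5 to 51.7 CPM, and no marker passed in these 3 lists. No marker gene was at 0 in any muscle. The part of these cell types in the values of the laminin, nidogen and perlecan genes was not tested.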

How the data were processed

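RNA of 12 mouse TA muscles, 6 Control and 6 *FRAIL1*, was sequenced as poly(A)-selected libraries by a sequencing service. Per the labels and the submitters' processing notes, reads were trimmed with Trimmomatic, aligned with STAR 2.7.8a (build mm10, the same assembly as GRCm38) and counted per gene with featureCounts 2.0.1, and the authors deposited raw counts per NCBI gene ID. No column of the table was left unused (0). Symbols came from the RefSeq table of GRCm38.p6 (25275 of 27179 IDs matched) and lengths and overlaps from GENCODE M21. Genes with low counts were removed with filterByExpr. TMM scaling and edgeR 4.0.16's robust quasi-likelihood test in R 4.3.3 were fitted to all 15502 remaining genes, with Benjamini-Hochberg adjustment over all of them. The ratios were tested in Python 3.11.15 with scipy 1.17.1, without scaling. DESeq2 1.42.0 and limma 3.58.1 (voom with quality weights) were alternatives, beside other scalings, other filters, a replicate block, and muscles left out. Omission of both muscles 5 together with a replicate block, and of Control muscle 1 with *FRAIL1* muscle 5, was added after the data were seen. The fit was checked on simulated counts with known changes. Within each group no libraries were duplicates (smallest chi-square per degree of freedom of a pair 14.5). Pairs across the groups were not compared.

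The genes and lists were chosen with earlier results of these data known. Beside the 9 genes, genes were named if they passed an adjusted p of 0.05 in a related list (at most 6 per list) or were among the 5 most correlated with the mean of the set. *Dag1*, *Tek*, *Col1a1*, *Col3a1*, *Dcn* and the untested *Lama1* are named outside that rule, as are the satellite cell, regenerating fiber and junction markers named. At depths of 44848322 to 60527385 counts each of the 9 genes had at least 412 counts in every muscle, so the spread between muscles exceeded counting error. The muscles are separate samples, but the labels do not say which 2 came from 1 mouse. Results for some genes of the related lists are not reported here.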

Additional observations from a re-analysis of the deposited data

Results flagged for a closer look

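Single muscles stood far from the rest of their group for 9 values among 28 groups of 6 examined (Dixon's test of the gap to the nearest muscle over the group's range). By chance about 1 in 20 groups would be marked in this way, and the 28 are not independent. *FRAIL1* muscle 5 was the distant one for *Lama2* (50.0 CPM, next 39.3), *Lama4* (47.1, next 28.6), *Lamb1* (81.2, next 45.3), *Lamc1* (173, next 133), *Nid1* (160, next 89.5) and *Nid2* (43.1 CPM, next 19.9). It was also distant in 2 log2 ratios, *Lama4* to *Lama2* at -0.085 (next -0.418) and *Lamb2* to *Lamb1* at 1.31 (next 2.24). Control muscle 1 was the distant one for *Nid2*, at 8.38 CPM (next 13.6). The same *FRAIL1* muscle had the highest summed fibroblast and regenerating fiber markers, and the part of those in its values was not tested.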

How the results depend on the processing

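Of the 308 values for 14 genes (the 9 described and 5 related) under 22 alternatives, 270 kept direction and side of the threshold, 26 lost and 7 gained the threshold, and 5 changed sign. Those were *Lama4* without *FRAIL1* muscle 5 (-0.02) or also without Control muscle 1 (-0.09), *Lamb2* without Control muscle 1 (-0.02) or *FRAIL1* muscle 3 (-0.03), and *Hspg2* without Control muscle 1 and *FRAIL1* muscle 5 (0.00). Leaving out 1 muscle gave -0.02 to 0.25 for *Lama4* and -0.03 to 0.04 for *Lamb2*. Of the 9 genes, 0 were called in the reported fit, 2 by DESeq2, 1 by voom and 0 to 1 when a muscle was left out. Over all genes 974 were called, 2211 by DESeq2, 1756 by voom and 364 to 2110 with a muscle left out. Receptors called were 3, or 1 with no filter and 1 to 3 with a muscle left out. Glycosylation genes called were 0, or 2 by DESeq2, 1 by voom, 1 without both muscles 5, and 0 to 2 with a muscle left out. Other basement membrane genes called were 2, or 8 by DESeq2, 4 by voom, 1 without both muscles 5, and 1 to 7 with a muscle left out. Leaving out 1 muscle gave -0.62 to -0.44 for the ratio *Lama5* to *Lama2* (call lost without *FRAIL1* muscle 5), -0.46 to -0.21 for *Lamb2* to *Lamb1*, 0.21 to 0.34 for *Nid2* to *Nid1* and -0.12 to -0.08 for *Hspg2* to *Lamc1*, each of the last 3 losing its call in 7 of 12 cases. Without both muscles 5 these ratios were -0.41, -0.19, 0.23 and -0.07, and without Control muscle 1 and *FRAIL1* muscle 5 -0.35, -0.17, 0.17 and -0.07, none past the threshold. The cause was not tested. With fewer muscles, fewer splits are available to the exact test.

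The labels do not say that a replicate number marks a mouse, so the numbers were not taken to pair the muscles in the reported fit. Same-numbered muscles deviated together with r of 0.0547 to 0.282. Their mean r was 0.2, against -0.04 for muscles of different number. Of the 12 muscles, 10 correlated best with their own number. With a replicate block 2186 genes were called, and 2305 when both muscles 5 were also left out. Of the 9 genes 1 was called in each (*Lama5*, adjusted p = 0.0221 and 0.0153), of the glycosylation genes 2 and 1, and of the other basement membrane genes 5 with the block over all muscles. In the paired exact sign-flip test the ratios kept their values, -0.56, -0.40, 0.29 and -0.10, with adjusted p of 0.104, 0.117, 0.104 and 0.125, in a design whose smallest unadjusted p is 0.0312.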
